A study of Mus musculus with 6 samples.

Results

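Chloride and volume-regulated anion channel genes were examined in neutrophils sorted by their electrical response to calcium entry. The 10 genes were chosen by name from 4 families: Clcn3, Clcn5 and Clcn7 of the CLC family, Clic1 and Clic4 of the CLIC family, Lrrc8a, Lrrc8c and Lrrc8d of the LRRC8 family, and Ano6 and Ano10 of the anoctamins. All 10 were matched to a gene identifier, out of 41388 genes in the deposited tables. Neutrophils from the bone marrow of C57BL/6 mice had been loaded with 250 nM DiBAC4(3), an anionic dye that enters and brightens in depolarized cells, and stimulated with 100 nM ionomycin, a calcium ionophore. From 2 to 4 minutes later, 20000 cells each of a depolarized and a polarized population were sorted into lysis buffer, and RNA was amplified with a low-input SMARTer kit. There were 3 depolarized and 3 polarized libraries, joined into 3 biological pairs by the series text and by a code shared in their titles, here named A, B and C. Every library came from stimulated cells, so no unstimulated level was measured.

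Movement of chloride sets part of the resting potential of a cell and lets it shed salt and water after swelling. CLC proteins work as dimers, and ClC-3, ClC-4, ClC-5 and ClC-7 exchange chloride for protons in the membranes of endosomes and lysosomes. LRRC8 proteins assemble into the volume-regulated anion channel, in which LRRC8A is indispensable and must combine with another LRRC8 paralog. Anoctamins include calcium-activated chloride channels and calcium-activated lipid scramblases, and CLIC proteins are mostly soluble proteins of the glutathione transferase fold whose role as channels is debated. In neutrophils chloride feeds the production of hypochlorous acid in the phagosome, and the current carried by the oxidase has to be balanced by other ions.

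Of 29 annotated genes in the 4 families, 12 had a mean over the 6 libraries of at least 1 CPM, the count of a gene scaled to the library's total, and these were the 10 chosen genes, Clcn4 and Clcn6. The other 17 held at most 33 counts each over all libraries, and 3 of them held 0 counts, which allows up to 0.0267 CPM at the 3 counts taken as the detection floor. Ano1 and Ano2, the classical calcium-activated chloride channels, had 2 counts and 1 count in all. The obligatory LRRC8 subunit gene Lrrc8a was accompanied by Lrrc8c and Lrrc8d, while Lrrc8b and Lrrc8e had 1 count each. Between sorted populations, 0 of the 10 genes passed the test for a difference (edgeR's quasi-likelihood test, blocked on the pair, Benjamini-Hochberg adjusted p under 0.05), where 0.321% of 9971 genes tested passed it. The same test gave an unadjusted p under 0.05 for 1 of the 10, Clcn3, against 6.58% of all genes tested, while DESeq2 with the same block called 0 of the 10 and 0.391% of all genes. At an unadjusted p under 0.05 DESeq2 had 2 of the 10 and 5.16% of all genes.

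Coding sequences of the paralogs had only short stretches in common. The longest identical stretch is shown for 4 pairs of genes, because a read from coding sequence that is longer than it cannot match both genes perfectly. They were read from GENCODE M21 transcripts on GRCm38, 5′ to 3′ on the coding strand, and start at coding base 1126 of Clcn3 and 913 of Clcn4, at 1720 of Clcn3 and 1714 of Clcn5, at 728 of Lrrc8a and 722 of Lrrc8c, and at 1888 of Lrrc8a and 2023 of Lrrc8d.
Clcn3 and Clcn4: ctcttttatgtggagtatcatacacc
Clcn3 and Clcn5: tatgccatggttggggctgctgc
Lrrc8a and Lrrc8c: tgtttgagaaggtgaagaagttc
Lrrc8a and Lrrc8d: gaggagatcatcagcttcca
These runs were 26, 23, 23 and 20 bases long. Clcn4 and Clcn5 shared at most 20 coding bases in a row, Clic1 and Clic4 at most 16 and Ano6 and Ano10 at most 12. One gene was not separable by position: 66.2% of the exon bases of Lrrc8a are also exons of Gm28035, a gene on the same strand that runs on beyond Lrrc8a, and Gm28035 held 1 count against 3867 for Lrrc8a. Whether reads in the shared exons were dropped, shared or given to Lrrc8a is not stated in the sources used here. Exons of Clcn3, Clcn5, Clcn7, Clic1, Clic4, Lrrc8c and Ano10 overlapped no other gene of the deposited tables, while those of Lrrc8d and Ano6 were overlapped on the opposite strand over 1.73% and 3.79% of their length, and those of Lrrc8a by a pair of genes over 2.11% and 2.07%.

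Library depth ran from 16904969 to 20381489 counts. Markers of neutrophils were abundant in every library, with a summed level of 167436 to 187285 CPM for 10 genes in depolarized and 188435 to 230588 CPM in polarized libraries. These sums rest mostly on S100a8 (log2 fold change -0.31), S100a9 (-0.30) and Retnlg (-0.37). Of the 10 neutrophil markers 0 were called, with 7 fitted below 0 and 3 above (Csf3r, Cxcr2 and Itgam). Markers of early granulocyte precursors differed between the populations: 7 of 9 were called lower in depolarized cells, against 24 of all 9971 genes tested. Their sums were 25.2 to 40.8 CPM in depolarized and 77.7 to 369 CPM in polarized libraries, the highest in the polarized library of pair C. Monocyte markers summed to 817 to 903 CPM in depolarized and 896 to 1176 CPM in polarized libraries, macrophage markers to 307 to 354 CPM and 269 to 304 CPM, and eosinophil markers to 60.9 to 207 CPM and 51.6 to 487 CPM. The macrophage sums rest mostly on Hmox1 (log2 fold change 0.16) and Adgre1 (0.49), the 2 of 8 fitted above 0. The other 6 were fitted below 0, and the median of the list was -0.85. The monocyte sums rest mostly on Ly6c2 (-0.48), and 4 of the 5 tested monocyte markers were fitted below 0. In both lists 0 markers were called. Of the eosinophil markers 7 were tested and 0 called, with 4 fitted below 0 and 3 above. B lineage markers summed to 2.55 to 5.94 CPM in depolarized and 4.18 to 11.5 CPM in polarized libraries. T and NK markers summed to 16.6 to 23.1 CPM and 22.6 to 28.7 CPM, and erythroid markers to 26.9 to 96.1 CPM and 39.5 to 63.7 CPM. Of 3 tested T and NK markers, Nkg7 was called lower in depolarized cells (log2 fold change -4.65, edgeR adjusted p 3.22e-05). Cd3d (0.004) and Cd3g (0.02) were not called. Platelet markers and basophil and mast cell markers stayed at or under 2.61 CPM in every library, and no marker of any list was at 0 counts in all libraries. The part of these markers in the values below was not tested, and in bulk RNA fewer cells of a type and less RNA per cell cannot be told apart.

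One library was unlike the others in many of the channel genes, the polarized one of pair C. It gave the lowest CPM of all 6 libraries for 6 of the 10 genes (Clcn5, Clcn7, Lrrc8a, Lrrc8c, Lrrc8d and Ano6) and the highest for Clic1. It was also the lowest library for 36.05% of all genes tested. Both counts use CPM without the TMM scaling factors of the edgeR fit. That factor was 0.877 in this library and 0.966 to 1.08 in the others, so scaling raises its levels relative to them. The order of libraries after that scaling is not given here. In that library the median deviation from a gene's mean over libraries was 0.19 on the log2 scale for the shortest of 3 equal classes of tested genes (up to 2603 bases) and -0.15 for the longest class (over 4808 bases). Clic1, at 1799 bases, falls in the shortest class, and Lrrc8a, at 4308 bases, in the middle one. Clcn5, Clcn7, Lrrc8c, Lrrc8d and Ano6 fall in the longest class. So do Clcn3 (17071 bases) and Clic4 (6572 bases), which were not lowest in that library. Ano10, at 2599 bases, is in the shortest class, and its 71.8 CPM there was below its median of 81.3 over the other libraries. Values without pair C are therefore given wherever they change a direction or a call. A fit over all pairs with the trend on gene length removed called 0 of the 10 genes. Its log2 fold changes were 0.30 for Lrrc8a, 0.07 for Clic1, -0.18 for Lrrc8c and 0.45 for Clcn7. The main fit gave 0.33, 0.04, -0.19 and 0.45. Beyond that fit, the part of gene length was not tested.

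**Figure D1:**
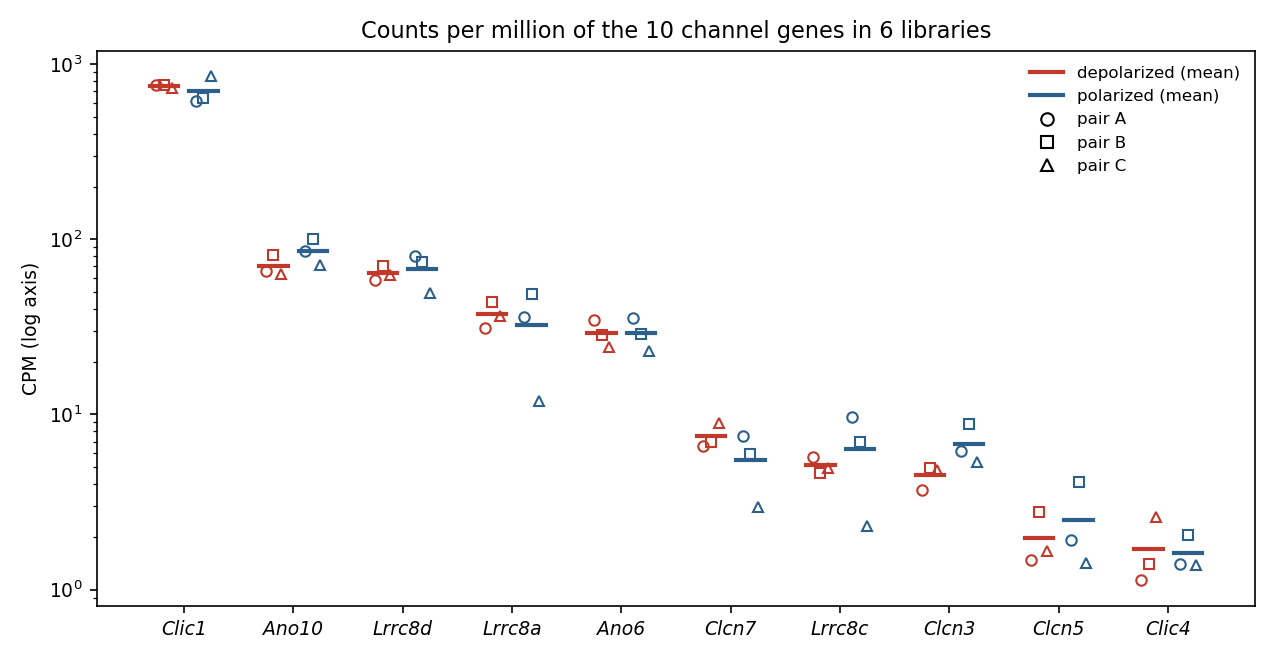
CPM on a log axis for the 10 channel genes in each library, with depolarized libraries in red on the left and polarized ones in blue on the right of each gene, symbols for the pairs and bars for group means of 3 libraries. Clic1 lies near 700 CPM in both groups, the groups of Clcn3 do not overlap, and the polarized library of pair C is the lowest for Lrrc8a (11.9 CPM) and Lrrc8c (2.29 CPM).

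Clic1 was by far the most abundant of the 10 genes. Clic1 (ENSMUSG00000007041, chromosome 17, 35049966 to 35058749 in GRCm38) had 761, 761 and 735 CPM in the depolarized libraries A, B and C, against 620, 639 and 856 CPM in the polarized libraries. The depolarized libraries lay close together, and the polarized ones spread to both sides of them, so the groups overlapped. Clic1 averaged 752 ± 14.7 CPM in depolarized and 705 ± 131 CPM in polarized cells (SD, n = 3 each). Its log2 fold change was 0.04 with a standard error of 0.20 and an approximate 95% interval of -0.37 to 0.46 (edgeR adjusted p 1). The difference was 0.36 in pair A, 0.21 in pair B and -0.45 in pair C on the log2 scale, so its sign was not shared by the pairs. Without pair C the fitted value of Clic1 was 0.29 (edgeR adjusted p 0.0547), and it was -0.11 without pair A and -0.04 without pair B. Per kilobase, Clic1 stood at 344 to 476 RPKM, rank 127 of 21979 genes with counts.

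Clic4, whose protein moves to the nucleus and to membranes in other mouse cells, had the fewest counts of the 10 genes. It had 1.13, 1.41 and 2.60 CPM in depolarized libraries A, B and C, and 1.40, 2.06 and 1.38 CPM in polarized ones, which rests on 23 to 44 counts per library. The groups overlapped, and 1 of 3 pairs was higher in depolarized cells. The log2 fold change was -0.04 with an interval of -0.94 to 0.87 (edgeR adjusted p 1). Per length, Clic1 took 99.9% ± 0.0329 of the summed CLIC family RPKM in depolarized and 99.8% ± 0.0545 in polarized cells (SD, n = 3 each). Clic4 took 0.0626% ± 0.0300 in depolarized and 0.0645% ± 0.0221 in polarized cells, and Clic3, which held 33 counts in all, took 0.0482% ± 0.0377 and 0.0977% ± 0.0446.

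On the deposited exon lengths the LRRC8 family showed the other extreme, with comparable levels of Lrrc8a and Lrrc8d. Had reads in the exons shared with Gm28035 not been counted, Lrrc8a would lead in every library, with at least 65.8% of the family per length. Lrrc8a (chromosome 2, 30237715 to 30263790) had 31.4, 44.1 and 36.5 CPM in depolarized libraries A, B and C, and 36.2, 48.9 and 11.9 CPM in polarized ones. The polarized library of pair C lay below the range of the other 5 libraries, which was 31.4 to 48.9 CPM. Lrrc8a averaged 37.3 ± 6.41 CPM in depolarized and 32.3 ± 18.8 CPM in polarized cells (SD, n = 3 each), with a log2 fold change of 0.33 ± 0.26 (SE, edgeR adjusted p 1). Within pairs A to C the differences were -0.14, -0.19 and 1.39. The fitted direction rested on pair C, without which the log2 fold change was -0.17 (edgeR adjusted p 0.510).

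Lrrc8d (chromosome 5, 105699969 to 105832436), which widens the channel's permeability to organic solutes, varied less. It had 58.4, 70.4 and 62.6 CPM in depolarized libraries, and 80.3, 74.5 and 49.5 CPM in polarized ones. The depolarized values lay inside the range of the polarized ones. Its log2 fold change was -0.14 ± 0.18 (SE) with an interval of -0.52 to 0.25 (edgeR adjusted p 1), and pair C again had the opposite sign (0.11) to pairs A (-0.40) and B (-0.12).

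Lrrc8c, a neighbour of Lrrc8d on chromosome 5 (105519388 to 105613018), was the minor subunit gene. It had 5.74, 4.64 and 4.97 CPM in depolarized libraries, and 9.73, 6.93 and 2.29 CPM in polarized ones. The highest and the lowest value were both from polarized cells, so the groups overlapped. The log2 fold change of Lrrc8c was -0.19 ± 0.33 (SE, edgeR adjusted p 1), and -0.69, -0.61 and 0.86 within pairs A to C. It was -0.66 without pair C (edgeR adjusted p 0.0743), 0.10 without pair A and 0.05 without pair B.

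Per length, Lrrc8a took 57.4%, 62.3% and 59.98% of the summed LRRC8 family RPKM in depolarized libraries A, B and C, and 52.3%, 62.4% and 39.4% in polarized ones. Lrrc8d took 36.6%, 34.1% and 35.3% in depolarized libraries and 39.7%, 32.6% and 56.3% in polarized ones. Lrrc8a led in 5 libraries, and Lrrc8d led in the polarized library of pair C. Lrrc8c took 3.69% to 5.92% in depolarized and 4.29% to 7.91% in polarized libraries. Had reads in the exons shared with Gm28035 not been counted, the level of Lrrc8a would rest on 1455 bases. Over these bases it would be 21.5 to 30.3 RPKM in depolarized and 8.16 to 33.6 RPKM in polarized libraries, and its share 80.0% to 83.0% and 65.8% to 83.1%. The order of Lrrc8a above Lrrc8d held in all 6 libraries on that scale, while by CPM, without division by length, Lrrc8d was the higher in all 6. Shares are a description and were given no test.

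**Figure D2:**
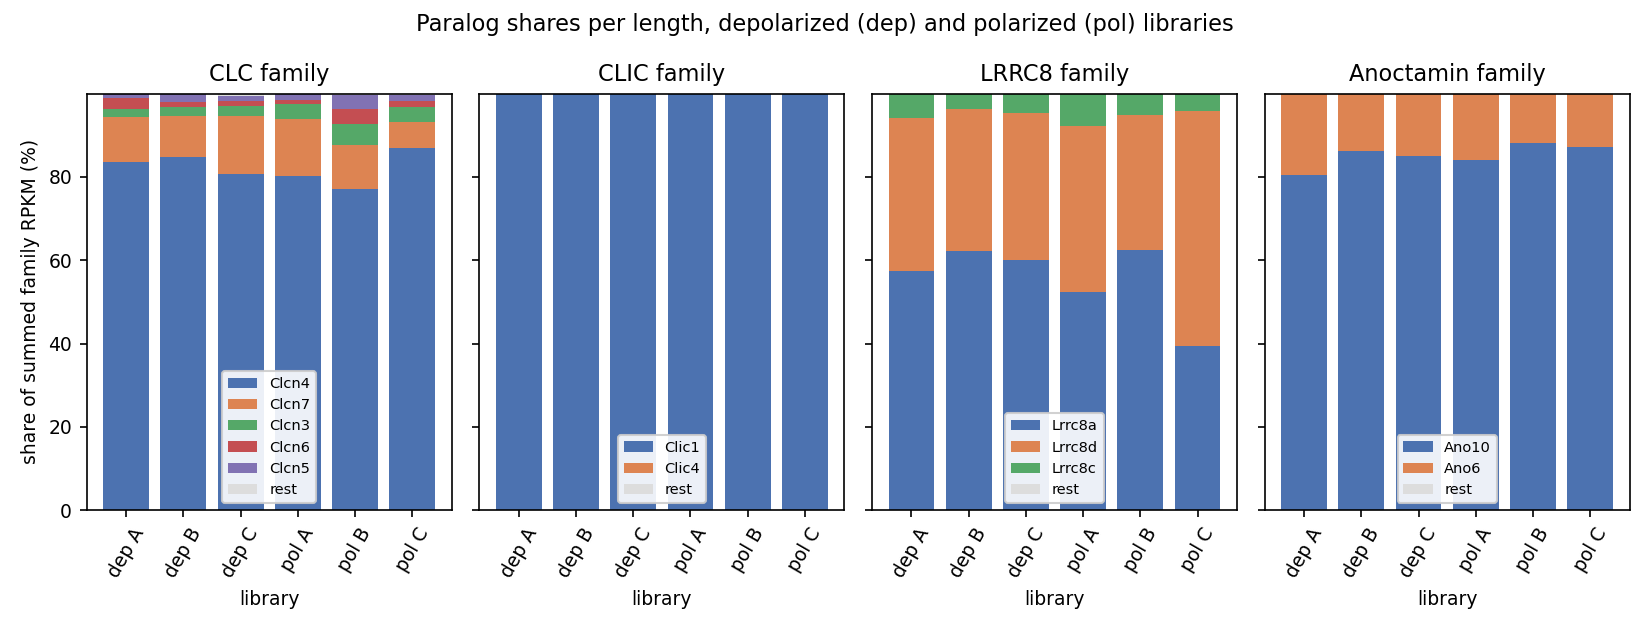
Share of the summed RPKM of each family (percent) taken by each paralog, with the 3 depolarized libraries left of the 3 polarized ones in each panel. Clcn4, Clic1 and Ano10 lead their families in all 6 libraries, and Lrrc8a leads the LRRC8 family in 5, with 39.4% in the polarized library of pair C.

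Among the CLC genes the 3 chosen ones were not the leading paralog. Clcn4 encodes a close relative of ClC-3 and ClC-5 and forms dimers with ClC-3. It held 9.73, 11.4 and 9.73 RPKM in depolarized and 8.40, 8.09 and 7.71 RPKM in polarized libraries. That was 80.7% to 84.8% of the summed CLC RPKM in depolarized and 77.0% to 86.9% in polarized libraries. Its exons span 8575 bases in GENCODE M21 against 4578 in the deposited tables, and with the longer length its share would be 69.1% to 74.9% in depolarized and 64.1% to 78.0% in polarized libraries. In CPM, Clcn4 had 44.6, 52.0 and 44.5 in depolarized and 38.4, 37.0 and 35.3 in polarized libraries. The groups did not overlap, which was so for 10.4% of all genes tested. Its log2 fold change of 0.28 ± 0.18 (SE) was above 0 in 3 of 3 pairs and did not pass the test (edgeR adjusted p 0.951). Clcn4 was called without pair C (0.36, edgeR adjusted p 0.0498), in a fit that called 10.1% of the genes it tested. Clcn6, a late endosomal relative, was at 0.828 to 1.82 CPM in depolarized and 0.621 to 2.23 CPM in polarized libraries, with a log2 fold change of 0.01 (edgeR adjusted p 1).

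Clcn3 gave the largest fitted difference of the 10 genes. It encodes ClC-3, an exchanger of endosomes and synaptic vesicles (chromosome 8, 60910389 to 60983300). Clcn3 had 3.73, 4.95 and 4.79 CPM in depolarized libraries A, B and C, and 6.21, 8.87 and 5.35 CPM in polarized ones, from 76 to 151 counts per library. Each depolarized library was below each polarized one, which was so for 1 of the 10 genes and for 3.14% of all genes tested. In either direction the groups did not overlap in CPM for the same 1 of the 10, for 10.4% of all genes tested and for 7.45% of all genes with counts. Clcn3 averaged 4.49 ± 0.664 CPM in depolarized and 6.81 ± 1.83 CPM in polarized cells (SD, n = 3 each), and its log2 fold change was -0.65 ± 0.27 (SE; interval -1.22 to -0.07). Within pairs A to C it was -0.66, -0.86 and -0.38, so depolarized cells were lower in 3 of 3. The unadjusted p of 0.0296 gave an edgeR adjusted p of 0.654, and Clcn3 did not pass the test. It was called without pair C (-0.78, edgeR adjusted p 0.0429), in a fit that called 500 genes higher and 518 lower, 10.1% of the genes it tested.

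Clcn5, the endosomal exchanger mutated in Dent disease of the human kidney, was near the lower end of the range. Clcn5 (chromosome X, 7153810 to 7319358) had 1.47, 2.76 and 1.66 CPM in depolarized libraries, and 1.91, 4.11 and 1.43 CPM in polarized ones. Pair B was the highest in both groups, and the groups overlapped. The log2 fold change of Clcn5 was -0.33 ± 0.37 (SE) with an interval of -1.12 to 0.46 (edgeR adjusted p 1).

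Clcn7 encodes the lysosomal exchanger that works with the subunit OSTM1 (chromosome 17, 25133391 to 25162104). It had 6.57, 6.98 and 8.93 CPM in depolarized libraries, and 7.56, 5.93 and 2.96 CPM in polarized ones. The groups overlapped, with the lowest value in the polarized library of pair C. The log2 fold change of Clcn7 was 0.45 ± 0.31 (SE, edgeR adjusted p 0.966), and -0.14, 0.19 and 1.34 within pairs A to C. It was 0.03 without pair C. Per length Clcn7 came next after Clcn4, with 9.85% to 14.0% of the CLC sum in depolarized and 6.30% to 13.6% in polarized libraries. Clcn3 took 1.88% to 2.33% in depolarized and 3.48% to 4.94% in polarized libraries, with no overlap between the groups. This share uses the same Clcn3 counts as its CPM, so it is not a second observation. The CLC sum itself was 11.6, 13.4 and 12.1 RPKM in depolarized libraries A, B and C and 10.5, 10.5 and 8.87 RPKM in polarized ones.

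Both expressed anoctamins were at moderate levels. Ano10, an endoplasmic reticulum protein mutated in a human cerebellar ataxia (chromosome 9, 122175879 to 122294374), had 65.9, 81.3 and 63.3 CPM in depolarized libraries A, B and C, and 86.1, 99.8 and 71.8 CPM in polarized ones. Depolarized cells were lower in 3 of 3 pairs by similar amounts (-0.32, -0.34 and -0.41 on the log2 scale, with TMM factors). In CPM, which has no TMM factors, the groups overlapped, with pair B the highest in both. Ano10 averaged 70.2 ± 9.70 CPM in depolarized and 85.9 ± 14.0 CPM in polarized cells (SD, n = 3 each). The log2 fold change was -0.36 ± 0.17 (SE) with an interval of -0.72 to 0.01, an unadjusted p of 0.0537 and an edgeR adjusted p of 0.772, so Ano10 did not pass the test. Over the alternatives tried its fitted value ran from -0.37 to -0.33, and the lowest edgeR adjusted p among them was 0.0574, without pair C.

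Ano6 encodes the calcium-activated scramblase that exposes phosphatidylserine on activated platelets and also conducts ions (chromosome 15, 95790843 to 95975464). It had 34.6, 28.4 and 24.1 CPM in depolarized libraries, and 35.4, 28.9 and 22.9 CPM in polarized ones. The values matched closely within each pair and spread more between pairs. The log2 fold change of Ano6 was -0.06 ± 0.19 (SE) with an interval of -0.46 to 0.33 (edgeR adjusted p 1). Per length, Ano10 took 80.5% to 86.1% of the anoctamin sum in depolarized and 84.0% to 88.2% in polarized libraries, and Ano6 took nearly all of the rest. In GENCODE M21 the exons of both genes are longer than in the deposited tables (12269 against 5640 bases for Ano6 and 5910 against 2599 for Ano10), so their levels per length depend on the annotation. With the longer lengths Ano10 would take 79.8% to 85.6% of the anoctamin sum in depolarized and 83.3% to 87.7% in polarized libraries.

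**Figure D3:**
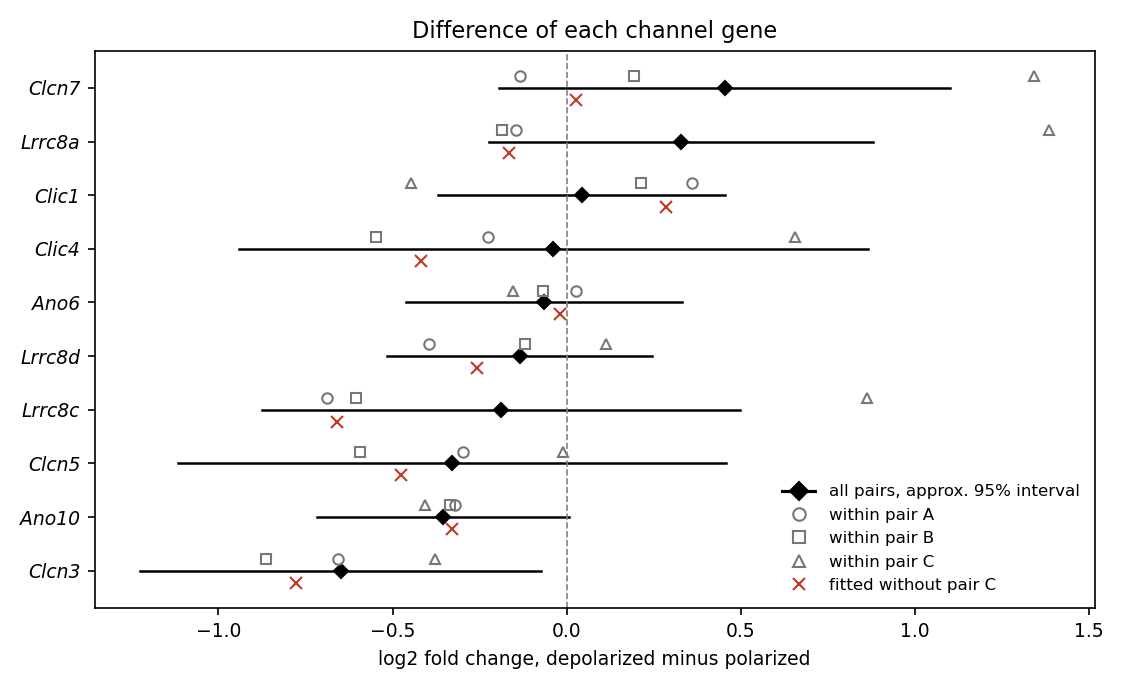
Log2 fold change, depolarized minus polarized, of each channel gene, with black diamonds and lines for the edgeR fit over all pairs and its approximate 95% interval, grey symbols for the difference within each pair and red crosses for the fit without pair C. Clcn3 has an interval that ends below 0 (-1.22 to -0.07), and Lrrc8a has pair C at 1.39 and the other pairs below 0.

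As a group, 7 of the 10 genes were fitted below 0 and 3 above, with a median log2 fold change of -0.10, while over all 9971 genes tested 5021 were below 0 and the median was 0.00. Ordered by level per length, the 10 genes ran from Clic1 at 344 to 476 RPKM and Ano10 at 24.4 to 38.4 RPKM to Lrrc8a (2.76 to 11.3), Lrrc8d (3.94 to 6.38) and Ano6 (4.07 to 6.29), whose ranges over the 6 libraries overlapped. Clcn7 (0.559 to 1.69 RPKM) and Lrrc8c (0.2998 to 1.27 RPKM) overlapped each other, and Lrrc8c also overlapped the lowest genes, Clcn3 (0.218 to 0.519), Clic4 (0.172 to 0.396) and Clcn5 (0.125 to 0.359), which overlapped among themselves. On the deposited lengths Clic1 and Ano10 did not overlap with any other of the 10 genes.

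In lists of related genes edgeR and DESeq2 called 0 in either direction, and apart from Clcn3 none had an unadjusted edgeR p under 0.05. Of the partner subunits of CLC exchangers, 2 of 4 were tested. Ostm1, the subunit of ClC-7, was at 21.3, 32.9 and 32.3 CPM in depolarized and 29.6, 29.6 and 15.3 CPM in polarized libraries, and Tmem9b at 44.6, 55.9 and 63.8 CPM and 58.5, 62.2 and 29.1 CPM. Both had the lowest of their 6 values, like Clcn7, in the polarized library of pair C, and neither was called (log2 fold changes of 0.18 for Ostm1 and 0.12 for Tmem9b, edgeR adjusted p 1 for each). Without pair C both were fitted below 0, Ostm1 at -0.14 (edgeR adjusted p 0.658) and Tmem9b at -0.26 (edgeR adjusted p 0.191). Of 12 other chloride channel genes 5 were tested and 0 called. Ttyh3, a tweety homolog, had a log2 fold change of 0.11 (edgeR adjusted p 1), which was -0.28 without pair C (edgeR adjusted p 0.173). Clcc1, of the endoplasmic reticulum, had 0.35 (edgeR adjusted p 1), and Ttyh2 had 0.60 (edgeR adjusted p 0.767). The groups of Ttyh2 did not overlap in CPM, as for 10.4% of all genes tested. Within pairs A to C Ttyh2 differed by 0.51, 0.05 and 1.26, and its fitted value was 0.29 without pair C.

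Of 15 chloride transporter genes 6 were tested and 0 called. Slc12a9, of the cation chloride cotransporter family, had a log2 fold change of -0.07 (edgeR adjusted p 1), and the sodium potassium chloride cotransporter gene Slc12a2 was below the filter. Slc26a11, of a family of anion transporters, had 26.4, 30.0 and 25.4 CPM in depolarized and 21.1, 19.9 and 18.5 CPM in polarized libraries. The groups of Slc26a11 did not overlap, as for 10.4% of all genes tested, and its log2 fold change was 0.39 (edgeR adjusted p 0.793). Without pair C, where 10.1% of all genes tested were called, Slc26a11 was called (0.47, edgeR adjusted p 0.0389).

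Of 8 genes of the kinase cascade that senses chloride and cell volume 5 were tested and 0 called. Wnk1, the kinase at its top, had 55.1, 66.0 and 65.2 CPM in depolarized and 77.0, 90.8 and 47.0 CPM in polarized libraries, a log2 fold change of -0.23 (edgeR adjusted p 1). Stk39, which encodes its target kinase SPAK, had -0.46 (edgeR adjusted p 0.793), and the scaffold gene Cab39 had -0.08 (edgeR adjusted p 1). The groups of Stk39 did not overlap in CPM, as for 10.4% of all genes tested. Within pairs A to C Stk39 differed by -0.16, -0.09 and -1.15, and its fitted value was -0.12 without pair C. Without pair C, Wnk1 (-0.46, edgeR adjusted p 0.00429) and Cab39 (-0.36, edgeR adjusted p 0.0400) were called, 2 of the 5 against 10.1% of all genes tested in that fit. Of 12 scramblase and flippase genes, which move phosphatidylserine across the membrane as ANO6 does, 8 were tested and 0 called. The flippase genes Atp11b and Atp8a1 and their shared subunit gene Tmem30a had log2 fold changes of -0.09, -0.15 and -0.11 (edgeR adjusted p 1 for each). Without pair C, 3 of the 8 were called, against 10.1% of all genes tested in that fit: Atp11b (-0.33, edgeR adjusted p 0.0385), Atp11a (-0.61, edgeR adjusted p 0.000232) and the caspase-activated scramblase gene Xkr8 (0.53, edgeR adjusted p 0.0358). Atp11a (-0.41 over all pairs) and Xkr8 (-0.02 over all pairs) are named here after their values were seen.

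**Figure D4:**
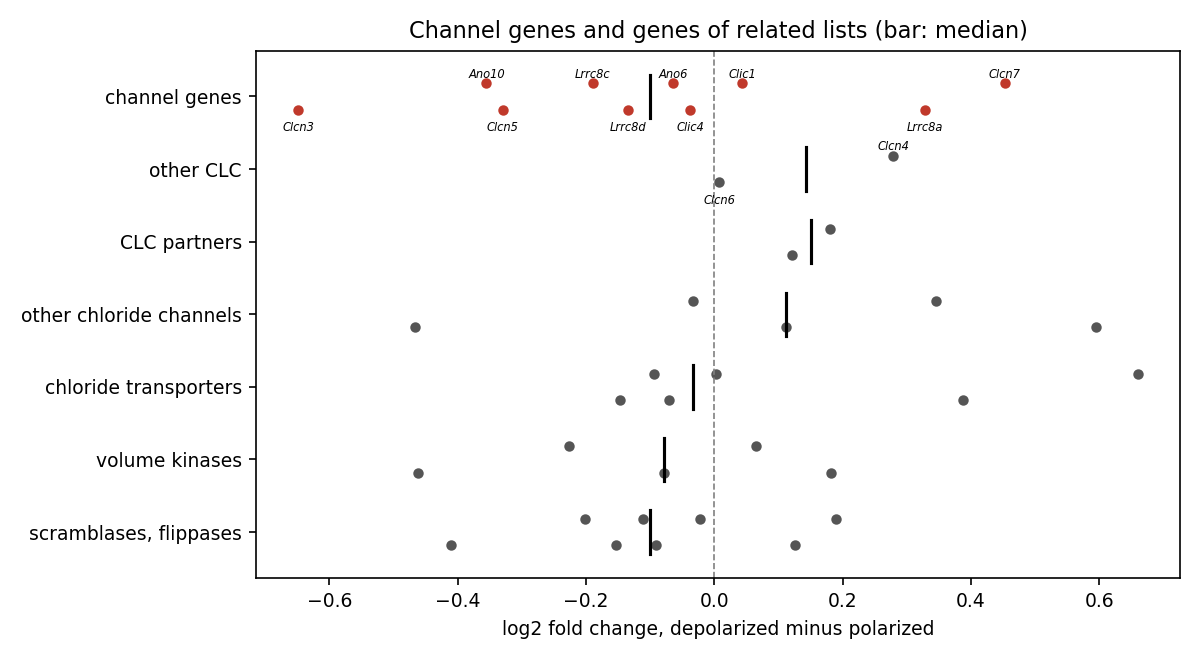
Log2 fold change, depolarized minus polarized, of the 10 channel genes (red) and of the tested genes of related lists (grey), with a bar at each median and names on the channel and CLC genes. None of the points passed the edgeR test, and the median of the channel genes lies at -0.10.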

How the data were processed

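Each library has its own deposited table of genes. Per the submitters' processing notes, bcl2fastq, STAR (2.0.4b), Subread and featureCounts (1.45) were used with GRCm38. The sources used here do not give the strand setting, the annotation release or how multi-mapped reads were handled. The deposited counts are whole and not normalized. The deposited CPM values are counts scaled to the library's total, and the deposited RPKM values are CPM per kilobase of the listed exon length. Levels are these deposited values.

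Counts were fitted in R 4.3.3 with edgeR 4.0.16 (filterByExpr, TMM, quasi-likelihood test, replicate code as block, 2 residual degrees of freedom), which kept 9971 genes with 99.9% of the counts, and all 10 channel genes. DESeq2 1.42.0 was an alternative. The code was checked on simulated data. Fold changes are depolarized minus polarized. Standard errors (fold change over the square root of F) and intervals are approximate. Differences within a pair are log2 CPM with TMM factors and a prior count of 2.

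Pairing rests on the series text. Deviations from the group means correlated at 0.08, 0.27 and 0.03 in pairs A, B and C. The titles carry a run label, run 1 in the depolarized library of pair B and run 2 in the other 5, whose meaning is not given. It was entered in no fit, and leaving out pair B compares run 2 libraries alone. Symbols were matched for 40254 genes. Channel genes, lists and alternatives were chosen with earlier results of these data known. Named genes were the 10, other family genes with a mean of at least 1 CPM, the 3 most abundant tested genes of each related list and any gene with an unadjusted p under 0.05. PCR reads without molecular identifiers are not independent molecules, so floors cover counting error only. Nothing in the labels says from how many animals a library came. Some genes that this rule names are not reported here.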

Additional observations from a re-analysis of the deposited data

How the results depend on the processing

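The 10 log2 fold changes were refitted under 10 alternatives, and 91 of 100 values kept their direction and their side of the threshold. Without the replicate block Clic4 was at 0.0226 instead of -0.04. Leaving out pair A, B or C moved Clic1 between -0.11 and 0.29, Clic4 between -0.42 and 0.24, Lrrc8c between -0.66 and 0.10 and Lrrc8a between -0.17 and 0.61. Clic1 was at -0.11 and -0.04, Clic4 at 0.06 and 0.24 and Lrrc8c at 0.10 and 0.05 without pairs A and B, and Lrrc8a at -0.17 without pair C. Clcn3 was called without pair C. The lowest edgeR adjusted p over the alternatives was 0.0429 for Clcn3, 0.0547 for Clic1, 0.0574 for Ano10, 0.0743 for Lrrc8c and 0.510 for Lrrc8a, each without pair C, and the highest was at least 0.9999 for each of them. The causes were not tested.

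Over all genes, 8 were called higher and 24 lower. Without the replicate block 0 and 0 were called, with 511 genes at an unadjusted p under 0.05. DESeq2 with the block called 16 higher, the fit with no filter on low counts 50 and 96, and the fit with the trend on gene length removed 0 and 8. Leaving out a pair gave 9 to 500 higher and 36 to 518 lower. With pair A or B left out, 0 of the channel genes, CLC family, chloride transporters, volume kinases, scramblases and flippases were called. Without pair C, where 10.1% of all genes tested were called, 1 of the 10 channel genes and 2 of 5 tested CLC genes were. So were 2 of 6 tested chloride transporters, 2 of 5 volume kinases and 3 of 8 scramblases and flippases.

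By CPM in place of RPKM, the share of Clcn4 was 75.4% in depolarized and 70.1% in polarized cells, that of Clic1 99.7% and 99.7%, that of Lrrc8a 35.0% and 28.3% and that of Ano10 70.6% and 74.6%, against 83.0%, 81.4%, 99.9%, 99.8%, 59.9%, 51.4%, 83.9% and 86.4% per length. Leaving the exon bases shared with Gm28035 out of the length of Lrrc8a, an alternative chosen after seeing the data, put its share at 81.5% in depolarized and 75.1% in polarized cells. GENCODE M21 exon lengths, likewise added, put the share of Clcn4 at 72.4% and 70.2%. The fewest counts lie behind Clic4 and Clcn5, 183 and 246 in all.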
